A study of Drosophila melanogaster with 3 samples.

Results

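The genes described here are the core of the apoptosis pathway of Drosophila melanogaster, 9 of the 17738 genes counted in single cells of the intestine. They are the antagonists of inhibitor of apoptosis proteins (IAPs) *rpr*, *hid*, *grim* and *skl*, the IAP *Diap1*, the adaptor *Dark*, the initiator caspase *Dronc*, and the effector caspases *Drice* and *Dcp-1*. They were chosen by name, each was found under its own symbol, and all 9 were found in the gene annotation.

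In flies, caspases are made as inactive precursors and are held in check by Diap1, which binds Dronc, Drice and Dcp-1 and marks its targets with ubiquitin. The products of *rpr*, *hid*, *grim* and *skl* share a short N-terminal motif that binds Diap1 and releases the caspases. Dronc is then activated on a platform built by Dark, and it cleaves the effector caspases that take the cell apart. Transcription of the antagonists is a main point of control, and ecdysone drives *rpr* and *hid* when larval tissues, the larval midgut among them, are removed at metamorphosis.

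The study followed the intestine from the early pupa to the adult, to learn how its cells mature and when their circadian clock begins to run. Single cells were profiled by 1 library per stage, from the 10x Genomics kit for transcript 3′ ends. Per the labels, the early pupa was at the red-eye stage, the immature adult was 1 day old and the mature adult was 7 to 8 days old. All 3 were female, were dissected at ZT0 (the time lights come on) and carried the genotype CantonS(per01 background), where per01 is a mutation of the clock gene *per*. The methods of the study name CantonS alone and once call the immature adult library pharate, a term for the adult still inside the pupal case. How many intestines went into each library was not given in the sources used here, and the cells left after dissociation and a density gradient are those the data describe.

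The libraries held 3816, 2625 and 6835 barcodes in the early pupa, immature adult and mature adult, and the study's filter kept 2013, 1197 and 1980 cells with a median of 9343, 14661 and 13474 unique molecular identifiers (UMIs). Kept cells shared 1 barcode between early pupa and immature adult, 2 between early pupa and mature adult and 0 between the adult libraries. A UMI of *roX1* or *roX2*, non-coding RNAs of the male X chromosome, was found in 15.5% of kept pupal cells, 1.09% of immature adult cells and 1.31% of mature adult cells, although all 3 libraries are labelled female. Cells were sorted into classes by the share of their UMIs in marker lists, and the cuts were set after the data were seen. Progenitor-like cells (intestinal stem cells and enteroblasts, ISC/EBs) numbered 490, 406 and 295, enteroendocrine (EE)-like cells 130, 245 and 108, and enterocyte (EC)-like cells 825, 423 and 1269. The classes also took in MtnB-high cells, named for the metallothionein gene *MtnB*, with 429 pupal, 14 immature adult and 0 mature adult cells, and 82 visceral muscle (VM)-like cells in the early pupa. The progenitor list had 18, 17 and 18 of its 18 genes raised, that is above the other cells of the library, in the progenitor-like cells of the 3 libraries. EC-like cells had 5 of 6 structural genes raised in every library, but 9 of 43 digestive enzyme genes in the early pupa against 24 and 37 in the adults. The progenitor and structural lists make the gates, so their rise follows from the gating and does not test the names of the classes. The enzyme genes are not part of a gate. The study's own progenitor list, drawn from these libraries, contains *hid*. It was taken out of the gate here, and the high *hid* level of progenitor-like cells is not independent evidence of a link with these cells. In the pupa, 107 cells lay just below the progenitor cut and 127 just above it. Cells passing 2 or more gates made up 33.6% of the kept pupal cells, against 22.0% for the immature adult library and 6.62% for the mature adult one. In the EE-like class 2 of 130 pupal, 16 of 245 immature adult and 22 of 108 mature adult cells passed 1 gate only. In the same order, 108, 202 and 71 EE-like cells also passed the gate on EC structural genes.

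A level is the gene's UMIs summed over the cells of a class, per 1000000 UMIs of the same cells (CPM). Brackets hold exact 95% intervals, which cover counting error only, since cells of 1 library are not replicates and no stage has a second library. No test between stages was therefore possible, and each difference between stages is also a difference between libraries. Because only the 3′ end is counted, levels are compared between cells and not between genes.

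*rpr* was the antagonist that separated pupal from adult progenitor-like cells while it stayed on in EE-like cells of every stage. Its level in progenitor-like cells was 44.0 CPM [39.1 to 49.3] in the early pupa, 0.875 CPM [0.420 to 1.61] in the immature adult and 0.346 CPM [0.0418 to 1.25] in the mature adult. In EE-like cells it was 42.7 CPM in the early pupa, 35.6 CPM in the immature adult and 38.9 CPM in the mature adult, with overlapping intervals. EC-like cells ran from 58.3 CPM [54.1 to 62.7] in the early pupa through 14.8 CPM [11.7 to 18.6] to 1.47 CPM [1.11 to 1.92] in the mature adult. The pupal level was thus alike in progenitor-like and EE-like cells and somewhat higher in EC-like cells, and after eclosion only EE-like cells, among these 3 classes, held a like level. A single immature adult EC-like cell held 25 of the 75 *rpr* UMIs of its class, and the level without it was 9.89 CPM. The gene lies on 3L at 18397535 to 18398435 on the minus strand (BDGP6 assembly, as are all positions given here).

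*hid*, which encodes a larger antagonist whose protein is switched off by growth factor signalling through Egfr, was the antagonist found in progenitor-like cells at every stage. Its level there was 313 CPM [299.9 to 327] in the early pupa, 163 CPM [156 to 171] in the immature adult and 138 CPM [129 to 148] in the mature adult. In EE-like cells it was 34.9, 10.6 and 17.2 CPM in the same order. In EC-like cells it was 15.4, 11.9 and 6.03 CPM, of which 1 pupal cell gave 70 of 193 UMIs and 1 immature adult cell gave 21 of 60. Without those cells the pupal and immature adult levels were 9.83 and 7.71 CPM. The order of the stages in progenitor-like cells was early pupa, immature adult, mature adult, and the intervals of neighbours did not overlap. Of all *hid* UMIs in kept pupal cells, 84.9% were in progenitor-like cells, which held 24.8% of all UMIs. *hid* spans 18167745 to 18185641 on 3L, minus strand.

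*grim*, the third antagonist of the same cluster of genes, was found almost only in the early pupa. Its level in progenitor-like cells was 38.0 CPM [33.5 to 43.0] in the early pupa from 255 UMIs, and it had 0 UMIs in 406 immature adult cells and 1 UMI in 295 mature adult cells. In pupal EE-like cells it was 47.7 CPM [37.0 to 60.6], against 3.28 CPM [1.75 to 5.61] in immature adult and 1.5 CPM [0.181 to 5.40] in mature adult EE-like cells. Pupal EC-like cells held 9 *grim* UMIs in 825 cells. No *grim* UMI was found in 429 MtnB-high or 82 VM-like pupal cells, which by a floor of 3 counts allows a share of cells with a UMI of up to 0.699% and 3.66%. *grim* was thus shared by pupal progenitor-like and EE-like cells and was near 0 in pupal EC-like, MtnB-high and VM-like cells. The 57 pupal cells outside all gates held 6 *grim* UMIs, at 10.9 CPM [3.99 to 23.7]. It lies at 18302719 to 18304417 on 3L, minus strand, where the annotation places the non-coding genes *lncRNA:CR45975* and *asRNA:CR45974* over it. Both had 0 UMIs in pupal and mature adult progenitor-like cells. Whether the counting kept strand was not given in the sources used here.

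*skl*, or sickle, is the fourth member of the family. It stood at 21.6 CPM [18.2 to 25.4] in pupal progenitor-like cells from 145 UMIs, 17 of them in 1 cell. Immature adult progenitor-like cells held 1 *skl* UMI and mature adult ones held 2. In EE-like cells its level was 12.1 CPM in the early pupa from 17 UMIs, 0.504 CPM in the immature adult from 2 UMIs and 4.49 CPM in the mature adult from 6 UMIs. EC-like cells held 4, 1 and 3 UMIs in the 3 libraries. Like *grim*, *skl* was found mostly in pupal progenitor-like and EE-like cells. Progenitor-like cells held 85.8% of its pupal UMIs and 24.8% of all pupal UMIs, and EE-like cells held 10.1% and 5.20%. It lies at 18438561 to 18439942 on 3L, minus strand.

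**Figure D1:**
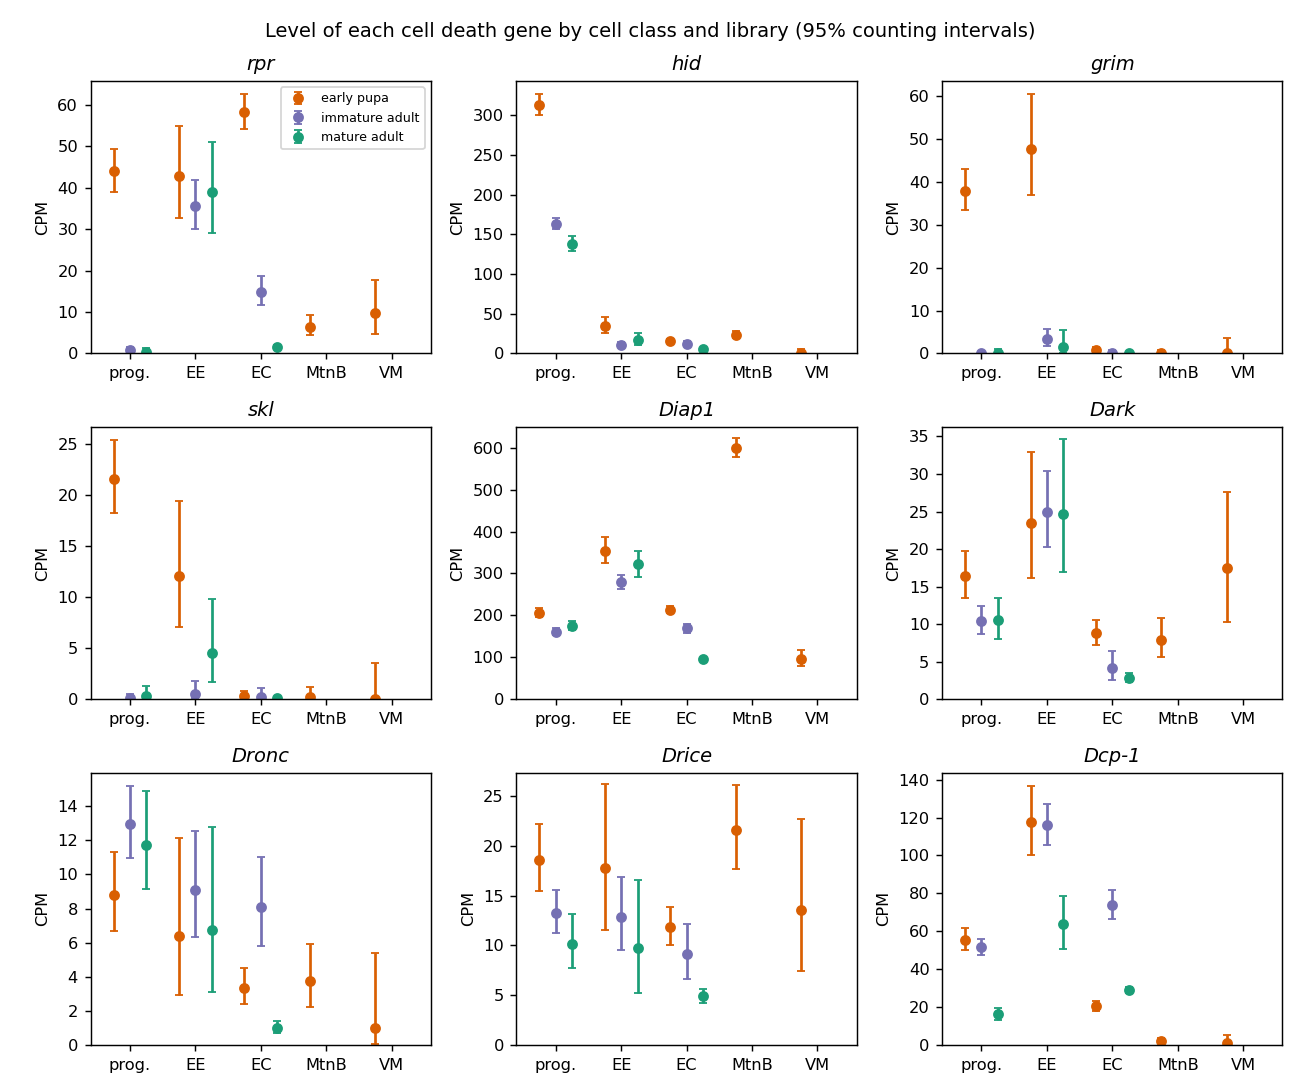
Level in CPM (y axis, linear) of each of the 9 genes in progenitor-like (prog.), EE-like, EC-like, MtnB-high and VM-like cells (x axis), for classes of at least 50 cells; points are sums over cells and bars are exact 95% Poisson intervals, coloured by library. Among the classes shown, *grim* and *skl* are above 10 CPM in pupal progenitor-like and EE-like cells alone, and *Diap1* reaches 601 CPM in MtnB-high cells.

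The pupal progenitors were then set against mature adult progenitors. The ratio of levels, given as log2 of pupa over mature adult, was 6.99 [5.13 to 10.04] for *rpr*, from 295 against 2 UMIs. For *grim* it was 7.78 [5.29 to 13.09], from 255 against 1 UMI, and for *skl* 5.97 [4.09 to 9.03], from 145 against 2 UMIs. The intervals are wide because the mature adult counts are so low. For *hid*, with 2101 against 800 UMIs, the log2 ratio was 1.18 [1.06 to 1.30]. Among the 6871 genes with at least 50 UMIs in both groups together, ranked by the ratio, *grim* stood at place 7, *rpr* at 20, *skl* at 47 and *hid* at 1003. So 3 antagonists were nearly confined to the pupal side of this comparison, and the fourth was a little over 2-fold higher there.

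Of the 9 genes, 5 were more than 2-fold higher in pupal progenitor-like cells and 0 were more than 2-fold lower. Of all 6871 genes, 17.2% were past the same limit upwards and 10.2% downwards. The 5 were the 4 antagonists and *Dcp-1*. The median log2 ratio was 1.18 over the 9 genes and 0.13 over all genes. The 4 antagonists summed stood at 417 CPM [401 to 432] in the early pupa, 164 CPM [157 to 172] in the immature adult and 139 CPM [130 to 149] in the mature adult, and the log2 ratio of pupa over mature adult was 1.58 [1.47 to 1.70].

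**Figure D2:**
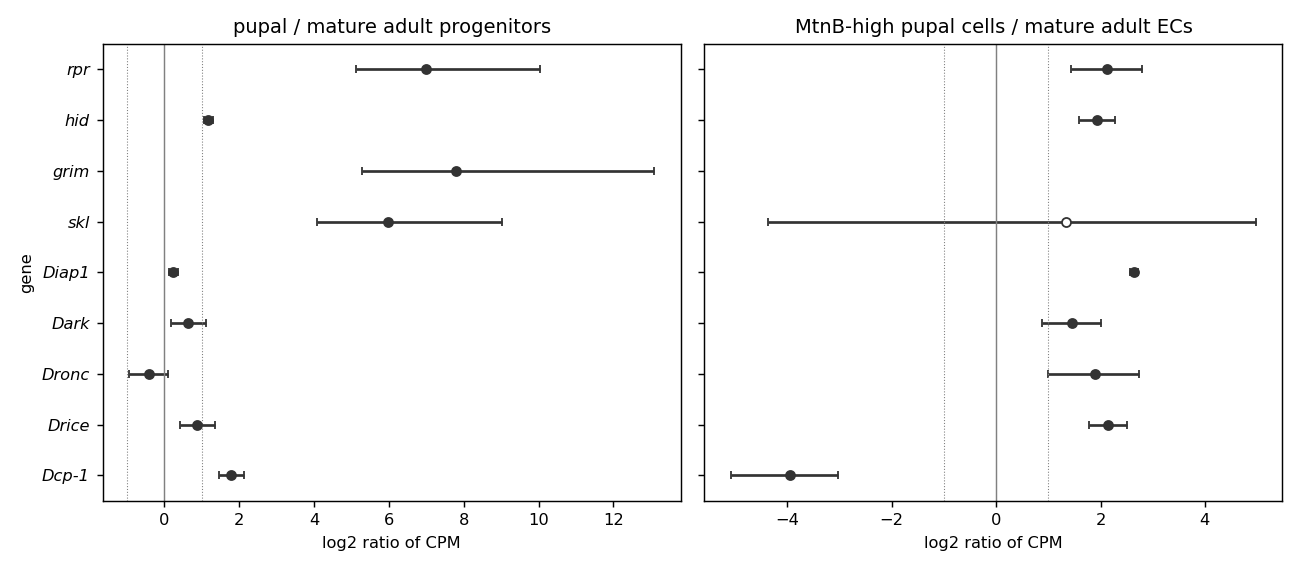
Log2 ratio of CPM (x axis) for each gene (y axis) between pupal and mature adult progenitor-like cells (left) and between MtnB-high pupal cells and mature adult EC-like cells (right); bars are exact 95% intervals for counting error, the dotted lines mark 2-fold, and an open symbol marks a gene with fewer than 50 UMIs in both groups together (*grim* is left out on the right because both counts are at or under 3). *rpr*, *grim* and *skl* stand farthest to the right in the left panel, and *Dcp-1* is the 1 gene past the lower 2-fold line in the right panel, at a log2 ratio of -3.95.

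Several measures of cell state differed with stage in these cells. Dividing-cell markers took a median of 38.9 UMIs per 10000 in pupal, 17.2 in immature adult and 13.1 in mature adult progenitor-like cells, and EC enzyme genes took 57.9 per 10000 in the mature adult against 4.06 in the pupa. The ratios were 8.85 for *rpr*, 1.09 for *hid*, 5.93 for *grim* and 6.31 for *skl* on the log2 scale among the 117 pupal and 236 mature adult cells with at most 20 dividing-marker UMIs per 10000, a setting chosen after seeing the data. With each cell given the same weight, the log2 ratio of *skl* was 3.89, and with no upper limit on genes and UMIs per cell, also set after seeing the data, that of *grim* was 4.88. Among pupal cells without a *roX* UMI the log2 ratio of *hid* was 1.08.

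The share of cells with a UMI gave the same picture at matched depth. At least 1 UMI of *rpr*, *grim* or *skl* was found in 46.3% [41.8 to 50.9] of pupal, 1.72% [0.696 to 3.52] of immature adult and 1.69% [0.553 to 3.91] of mature adult progenitor-like cells, whose median depths were 13809.5, 27734 and 16764 UMIs. After each cell was thinned at random to 5000 UMIs, the shares were 29.3%, 0.539% and 0.433%, with 74, 35 and 64 shallower cells left out. The adult shares were at the level of a few cells. For *rpr* the thinned share was 16.3% in pupal progenitor-like cells, 17.5% in pupal EE-like cells and 21.8% in pupal EC-like cells. It was 3.1% in MtnB-high cells and 0 of 45 in VM-like cells, which allows up to 6.67%. These shares leave out 367 of 825 EC-like and 203 of 429 MtnB-high cells as too shallow, and 16 EE-like and 37 VM-like cells. Thinned to 1000 UMIs, with no cell left out, *rpr* was found in 6.53% of progenitor-like, 3.08% of EE-like, 5.58% of EC-like and 2.33% of MtnB-high cells and in 0 of 82 VM-like cells. Unthinned, *rpr* was found in 28.4% of pupal progenitor-like cells and in 11% of VM-like cells, whose median depth was 6259.5 UMIs. In the adults *rpr* was found in fewer progenitor-like than EC-like cells, at 1.48% against 8.27% in the immature and 0.678% against 3.78% in the mature adult.

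Barcodes of at most 1000 UMIs were removed by the study's filter, and the study counted them as cells before filtering. They can hold shallow cells as well as RNA from outside intact cells, and these were not told apart. In the pupa, 718 such barcodes held *rpr* at 52.9 CPM [35.1 to 76.4], *hid* at 47.2 CPM [30.5 to 69.7] and *grim* at 5.66 CPM from 3 UMIs. The *rpr* levels of pupal EC-like, progenitor-like and EE-like cells, at 58.3, 44.0 and 42.7 CPM, all lay within the interval of this pool, while *hid* and *grim* were higher in progenitor-like cells than in the pool. In the immature adult, 738 such barcodes held *rpr* at 5.88 CPM from 3 UMIs and *hid* at 33.3 CPM. In the mature adult, 3694 such barcodes held 7 *rpr* UMIs, at 2.72 CPM, and 0 of *grim* and *skl*. MtnB-high and VM-like cells of the same pupal library stood at 6.44 and 9.68 CPM of *rpr*, below the pool.

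**Figure D3:**
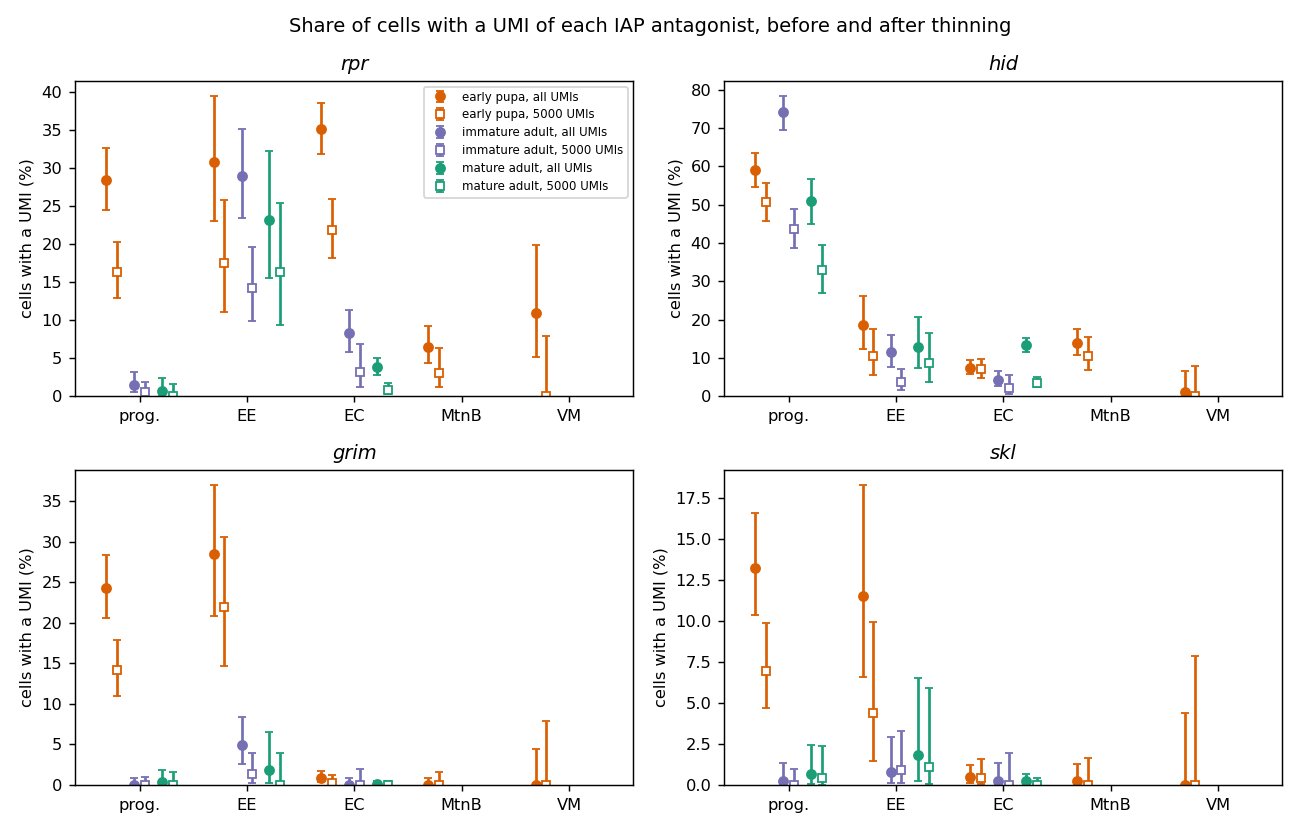
Share of cells with at least 1 UMI in percent (y axis) of *rpr*, *hid*, *grim* and *skl* by class and library (x axis), for classes of at least 50 cells; filled circles use all UMIs of a cell, open squares cells thinned to 5000 UMIs, and bars are Clopper-Pearson 95% intervals. *rpr* is found in pupal progenitor-like, EE-like and EC-like cells and in EE-like cells of all 3 libraries, and *grim* in 24.3% of pupal progenitor-like cells.

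Some pupal cells had UMIs of more than 1 antagonist. Of the 490 pupal progenitor-like cells, 174 (35.5% [31.3 to 39.9]) had UMIs of 2 or more of the 4 genes, and 15 had all 4. Taken singly, *hid* was found in 59.0%, *rpr* in 28.4%, *grim* in 24.3% and *skl* in 13.3% of these cells. Whether the share with 2 or more exceeds what these single shares alone would give was not tested. Among adult progenitor-like cells, where *rpr*, *grim* and *skl* were each found in few cells, the share with 2 or more was 1.23% at the immature and 1.02% at the mature stage. In pupal EE-like cells it was 28.5%, in pupal EC-like cells 3.88% and in MtnB-high cells 1.40%. Within pupal progenitor-like cells the pair *grim* and *skl* went together most clearly. *skl* was found in 35.3% [26.8 to 44.6] of 119 cells with *grim* and 6.20% [3.97 to 9.16] of 371 cells without it. For *rpr* and *skl* the shares were 24.5% [17.6 to 32.5] of 139 and 8.83% [6.08 to 12.3] of 351 cells. For *rpr* and *grim*, at 27.3% and 23.1%, the intervals overlapped. *hid* was found in 69.8% of cells with *rpr* and 54.7% of those without. *grim* was found in 29.8% and *skl* in 18.0% of cells with *hid*, against 16.4% and 6.47% of cells without it. The intervals of each pair with *hid* stayed apart. The median depth was 14526 UMIs in cells with *grim* and 13105 in those without, and 13957 and 13556 with and without *rpr*. With and without *hid* it differed more, at 14973 and 10566 UMIs, and the part of depth in the pairs was not tested.

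Within pupal progenitor-like cells the 4 antagonists followed different divisions of the class. *hid* followed *klu*, an enteroblast gene that is itself part of the gate, with 373 CPM [356 to 390] in the 336 cells with a *klu* UMI and 85.9 CPM [71.2 to 103] in the 154 without. *grim* followed *pros*, the transcription factor of the EE fate, with 63.0 CPM [53.8 to 73.5] in 169 cells with *pros* and 22.2 CPM [17.8 to 27.2] in 321 without. *skl* stood at 30.0 and 16.3 CPM in the same cells. *rpr* followed the absence of *stg*, the phosphatase that starts mitosis, with 31.6 CPM [27.0 to 36.7] in cells with *stg* and 95.8 CPM [79.7 to 114] in cells without. The depth of these cells differed too, at a median of 15168 UMIs with *stg* and 6403.5 without, and its part in the result was not tested. *hid* did not share this pattern, at 313 and 315 CPM.

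Split at the median of the dividing-marker share, the 245 pupal progenitor-like cells above it held *rpr* at 28.2 CPM and *hid* at 255 CPM, and the 245 below it held them at 68.4 and 404 CPM. *grim* went the other way, at 43.6 CPM above and 29.3 CPM below, with intervals that did not overlap. Split by the mitochondrial share of UMIs, a sign of cell quality, all 4 antagonists were higher in the cells with less mitochondrial RNA. *rpr* stood at 59.5 against 29.1 CPM, *hid* at 385 against 245 CPM, *grim* at 51.9 against 24.8 CPM and *skl* at 34.8 against 9.03 CPM. The pupal cells rich in mitochondrial RNA were thus those with lower antagonist levels, and *Diap1* was lower in them too, at 168 against 248 CPM. The 104 cells with a *roX* UMI held *rpr* at 77.2 CPM against 35.7 CPM in the other 386, and *hid* at 397 against 292 CPM.

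**Figure D4:**
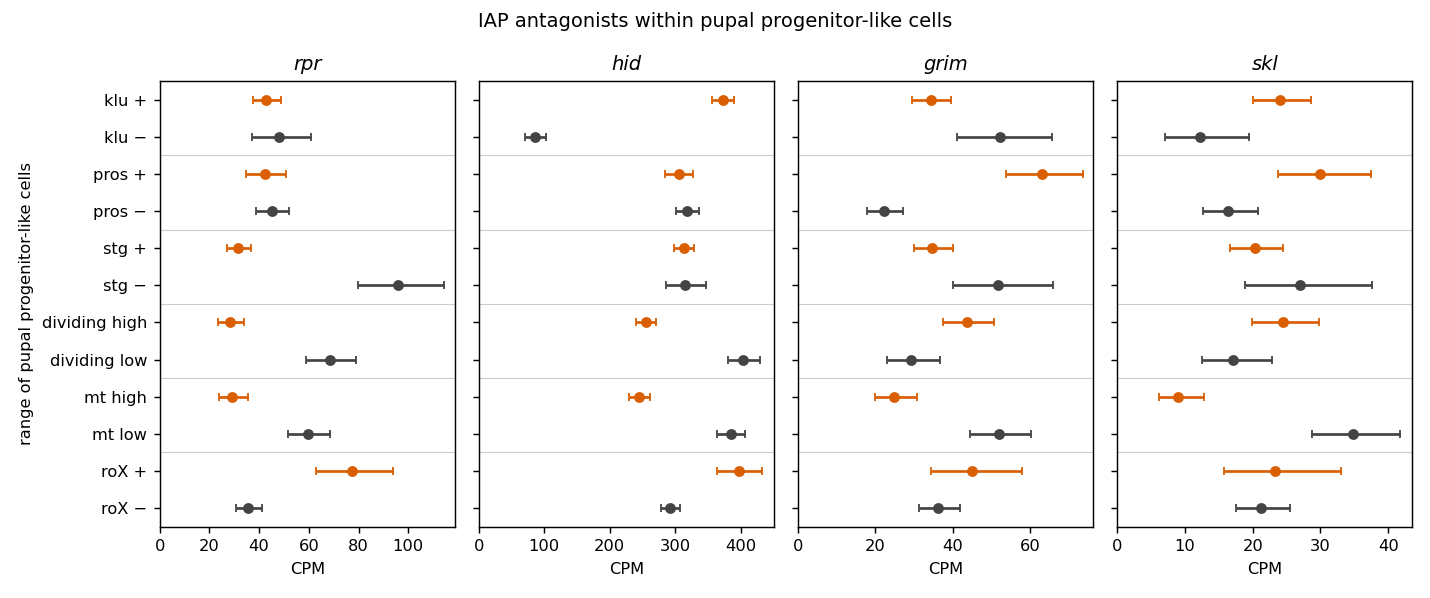
Level in CPM (x axis, one scale per panel) of the 4 antagonists in pupal progenitor-like cells divided 6 ways (y axis): cells with or without a UMI of *klu*, *pros* or *stg*, cells above or below the median share of dividing markers or of mitochondrial UMIs, and cells with or without a *roX* UMI; bars are exact 95% Poisson intervals. *hid* differs most by *klu*, *grim* by *pros*, *rpr* by *stg* and *skl* by mitochondrial share.

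In immature adult progenitor-like cells, *hid* was 106 CPM in the 174 cells with *Dl*, the Notch ligand of stem cells, and 222 CPM in the 232 cells without it. By *stg* the levels were 97.5 and 230 CPM. Immature adult *hid* was therefore lower in the part of the class with stem cell and mitosis genes, whose cells were also deeper, with medians of 33633 UMIs with *Dl* and 23857.5 without. In pupal progenitor-like cells the difference by *Dl* was smaller, at 291 CPM with and 370 CPM without.

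EE-like cells differed by the hormones they make. *rpr* was 65.2 CPM in the 26 pupal cells with more *AstC* and *AstA* than *Tk*, *NPF* and *Dh31* UMIs and 33.3 CPM in the 78 cells of the opposite kind. In the immature adult the levels were 48.1 CPM [39.7 to 57.8] and 19.1 CPM [12 to 29.0]. In the mature adult they were 53.5 CPM [38.1 to 73.2] and 24.0 CPM [12.8 to 41.0]. The order was the same in all 3 libraries, and only in the immature adult did the intervals stay apart. Of the 130 pupal EE-like cells, 73 also passed the progenitor gate, and in these *grim* was 63.7 CPM and *hid* 54.0 CPM, against 30.8 and 14.7 CPM in the other 57.

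Set against mature adult EE-like cells, pupal EE-like cells had 2 of the 6 genes with at least 50 UMIs more than 2-fold higher and 0 more than 2-fold lower. Of 4355 genes, 12.9% were that much higher and 10.4% lower. The 2 were *grim*, at a log2 ratio of 4.99 [3.09 to 8.07], and *hid*, at 1.02 [0.28 to 1.80]. The log2 ratio of *rpr* was 0.14 [-0.43 to 0.70]. The compared cells also differed in their EE markers, with a median of 283 UMIs per 10000 in pupal and 1268 in mature adult EE-like cells.

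In EC-like cells the comparison of pupa with mature adult gave 6 of the 7 genes tested more than 2-fold higher and 0 more than 2-fold lower, where 52.4% and 8.85% of 7325 genes were past the same limits. The median log2 ratio of all genes was 1.05, so most genes were higher in the pupa on this scale, and ratios near 1 are those of a typical gene. Against this shift *rpr* stood out, at 5.31 [4.91 to 5.73] and place 228 of 7325. *hid* at 1.36, *Diap1* at 1.15 and *Drice* at 1.28 lay near the median. Within EC-like cells *hid* was higher in cells with fewer digestive enzyme UMIs. It was 28.6 CPM in the 412 pupal cells with fewer digestive enzyme UMIs and 1.79 CPM in the 413 with more, and 22.6 against 1.91 CPM in the immature adult and 11.4 against 4.06 CPM in the mature adult. 1 pupal cell held 70 of these *hid* UMIs and 1 immature adult cell 21, and without them the higher values were 17.6 and 13.9 CPM. *rpr* did not follow this division in the pupa, at 63.4 and 52.9 CPM.

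*Diap1*, the IAP that the antagonists bind, was found in every class of at least 50 cells and was highest in MtnB-high cells. In progenitor-like cells it was 207 CPM [196 to 218] in the early pupa, 161 CPM [154 to 169] in the immature adult and 175 CPM [164 to 186] in the mature adult. The log2 ratio of pupa over mature adult was 0.24 [0.12 to 0.36]. In EE-like cells it was 355, 280 and 322 CPM, and in EC-like cells 213, 169 and 96.1 CPM. The order of the classes, EE-like above progenitor-like and EC-like cells, held in all 3 libraries. Pupal progenitor-like and EC-like cells did not differ beyond their intervals. VM-like pupal cells stood at 96.8 CPM. *Diap1* lies at 16038410 to 16051034 on 3L, minus strand, with *lncRNA:CR43951* and *asRNA:CR45889* annotated over it.

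Summed UMIs of the 4 antagonists per *Diap1* UMI put the opposing transcripts of each class on 1 scale, on which only differences between groups have a meaning. *hid* gave 2101 of 2796 antagonist UMIs in pupal, 1868 of 1879 in immature adult and 800 of 805 in mature adult progenitor-like cells. In pupal EC-like cells *rpr* gave 729 of 935. Differences between classes therefore also set different genes against each other, and these parts were not told apart. The quotient was 2.02 [1.89 to 2.15] in pupal, 1.02 [0.957 to 1.09] in immature adult and 0.795 [0.724 to 0.873] in mature adult progenitor-like cells. It was lower in EE-like cells, at 0.388, 0.179 and 0.193, and in EC-like cells, at 0.351, 0.159 and 0.0792. In each of the progenitor-like, EE-like and EC-like classes the early pupa had the highest quotient. In cells outside all gates it was 0.424 [0.279 to 0.632] in the pupa and 0.503 [0.387 to 0.649] in the immature adult. In all kept cells together it was 0.539 [0.519 to 0.560] and 0.572 [0.543 to 0.602]. The intervals of pupa and immature adult overlapped in both cases. The mature adult was lowest, at 0.167 outside all gates and 0.231 in all kept cells. MtnB-high pupal cells had the lowest of the groups of at least 50 cells, 0.0494 [0.0415 to 0.0585].

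**Figure D5:**
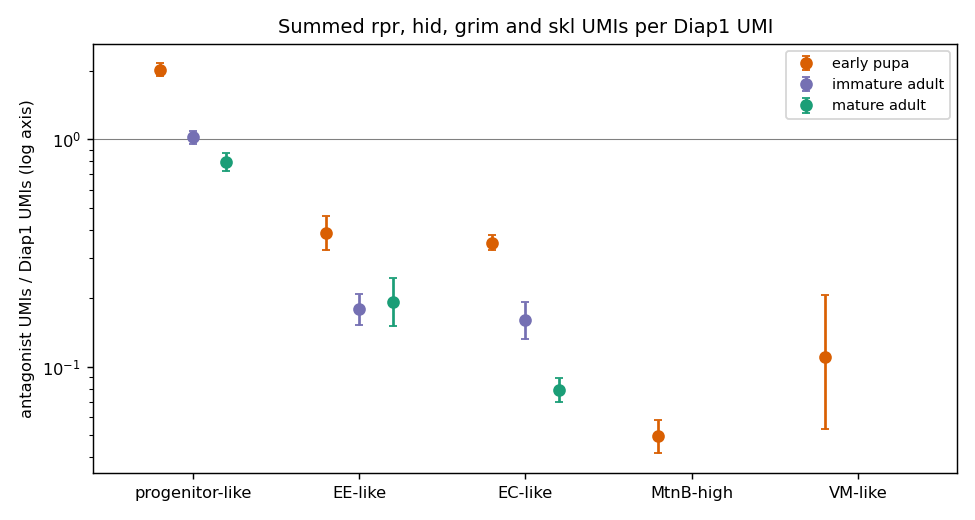
Summed UMIs of *rpr*, *hid*, *grim* and *skl* divided by UMIs of *Diap1* (y axis, log scale) by class (x axis) and library, with exact 95% intervals for counting error; the horizontal line marks 1. Pupal progenitor-like cells lie highest at 2.02 and MtnB-high cells lowest at 0.0494.

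MtnB-high cells are pupal cells with a median of 5660 UMIs and 10.6% mitochondrial UMIs. All 14 other genes that the study names for its pupal cell type were raised in them, none of the 18 progenitor or 21 EE markers was, and fat body markers had 0 UMIs. Of the 429 cells, 416 also passed the gate on EC structural genes. *MtnB* alone took 21.3% of their UMIs. These cells had low *rpr*, at 6.44 CPM [4.37 to 9.14], and *hid* at 23.0 CPM [19.0 to 27.7], with no *grim* and 1 UMI of *skl*. Their *Diap1* level was 601 CPM [579 to 623], 37.9% of all *Diap1* UMIs of the pupal library.

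Set against mature adult EC-like cells, MtnB-high cells were higher in *Diap1*, at a log2 ratio of 2.64 [2.57 to 2.72] from 2893 against 3523 UMIs. For *rpr* the log2 ratio was 2.13 [1.44 to 2.79] and for *hid* 1.93 [1.59 to 2.27]. For *Dark* it was 1.46 [0.89 to 2.01], for *Dronc* 1.89 [0.99 to 2.74] and for *Drice* 2.14 [1.78 to 2.50]. *Dcp-1* stood apart, with 9 UMIs against 1059 and a log2 ratio of -3.95 [-5.08 to -3.02]. Of the 7 genes with at least 50 UMIs, 6 were more than 2-fold higher and 1 was more than 2-fold lower, where 31.1% and 36.6% of 6901 genes were past these limits. *grim* had 0 against 1 UMI and *skl* 1 against 3, and neither could be compared. Leaving *MtnB* out of the totals, chosen after seeing the data, moved every gene by 0.35 upwards on the log2 scale, and leaving out the 50 most abundant genes moved every gene by 0.27 downwards. Neither changed which of the 7 genes were higher or lower.

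With each cell given the same weight, the log2 ratios in this comparison were 3.20 for *rpr*, 1.02 for *hid*, 1.82 for *Diap1*, 2.33 for *Dark* and 1.12 for *Drice*. Levels within MtnB-high cells also differed with depth. In the 214 shallower MtnB-high cells *Diap1* was 374 CPM and *rpr* 27.7 CPM, and in the 215 deeper ones *Diap1* was 627 CPM and *rpr* 3.94 CPM. The deeper MtnB-high cells are those with the most *Diap1* and the least *rpr*.

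The other partners for this comparison gave a different picture for the antagonists and the same for *Diap1* and *Dcp-1*. Against all mature adult cells the log2 ratio was -0.00 [-0.30 to 0.28] for *hid*, 1.48 for *rpr*, 2.43 for *Diap1* and -3.91 for *Dcp-1*. Against pupal EC-like cells it was -3.18 [-3.75 to -2.66] for *rpr*, 0.58 for *hid*, 1.49 for *Diap1* and -3.45 for *Dcp-1*. Against pupal progenitor-like cells it was -2.77 for *rpr*, -3.76 for *hid*, 1.54 for *Diap1* and -4.89 for *Dcp-1*. The median log2 ratio of all genes was -0.82 against all mature adult cells, -1.03 against pupal EC-like cells and -1.70 against pupal progenitor-like cells. Beside these medians, *rpr* and *hid* were lower than a typical gene against pupal progenitor-like cells. Against pupal EC-like cells *rpr* was lower and *hid* higher, and against all mature adult cells both were higher. Within the pupal library MtnB-high cells were thus the class with most *Diap1* and with less *rpr* than progenitor-like and EC-like cells. These comparisons share the MtnB-high cells and are not independent.

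*Dark* encodes the fly counterpart of Apaf-1. It was highest in EE-like cells, at 23.5, 25 and 24.7 CPM from early pupa to mature adult, with overlapping intervals. In progenitor-like cells it was 16.4 CPM [13.5 to 19.8] in the early pupa, 10.4 CPM [8.63 to 12.5] in the immature adult and 10.5 CPM [8.06 to 13.5] in the mature adult, with a log2 ratio of pupa over mature adult of 0.64 [0.17 to 1.11]. In EC-like cells it was 8.79, 4.15 and 2.86 CPM. Its span is 17020027 to 17026703 on 2R, plus strand, where the antisense gene *asRNA:CR44390* overlaps it.

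*Dronc*, the caspase that Dark activates, was the 1 gene of the 9 that was lower in pupal than in mature adult progenitor-like cells, within counting error. Its level was 8.79 CPM [6.69 to 11.3] in the early pupa, 13.0 CPM [11 to 15.2] in the immature adult and 11.7 CPM [9.12 to 14.9] in the mature adult. The log2 ratio of pupa over mature adult was -0.42 [-0.95 to 0.11]. Among progenitor-like cells low in dividing markers it was 1.07, the opposite direction. Within the pupa *Dronc* was 14.4 CPM in the cells below the median of dividing markers and 5.15 CPM in those above. In EC-like cells its level was 3.36 CPM in the early pupa, 8.11 CPM in the immature adult and 1.01 CPM in the mature adult. *Dronc* lies at 9968479 to 9971002 on 3L, plus strand.

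The effector caspases *Drice* and *Dcp-1*, close relatives that cleave many of the same proteins, differed in where they were found. *Drice* in progenitor-like cells was 18.6 CPM [15.5 to 22.2] in the early pupa, 13.3 CPM [11.3 to 15.6] in the immature adult and 10.2 CPM [7.76 to 13.1] in the mature adult. The log2 ratio of pupa over mature adult was 0.87 [0.41 to 1.34], and it was 1.64 with equal weight of cells and 2.18 among cells low in dividing markers. MtnB-high cells held 21.6 CPM [17.6 to 26.2]. In pupal EE-like and EC-like cells it was 17.8 and 11.8 CPM, so *Drice* was found in all 4 of these pupal classes. The log2 ratio of MtnB-high over pupal EC-like cells was 0.87 [0.49 to 1.24]. It lies at 29799658 to 29801584 on 3R, plus strand.

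*Dcp-1* had the widest range of the caspases. In progenitor-like cells it was 55.6 CPM [50.1 to 61.5] in the early pupa, 51.6 CPM [47.5 to 56.0] in the immature adult and 16.1 CPM [13.0 to 19.7] in the mature adult, with a log2 ratio of pupa over mature adult of 1.79 [1.46 to 2.13]. EE-like cells were highest, at 117, 116 and 63.6 CPM. In these 2 classes the early pupa and the immature adult were alike and the mature adult was lower. In EC-like cells the order differed, with 20.4 CPM [18.0 to 23.0] in the early pupa, 73.8 CPM [66.5 to 81.7] in the immature adult and 28.9 CPM [27.2 to 30.7] in the mature adult. MtnB-high cells held 9 *Dcp-1* UMIs, or 1.87 CPM [0.854 to 3.55], and VM-like cells held 1. *Dcp-1* lies at 23551313 to 23553547 on 2R, plus strand, and the annotation places *pita* over part of it.

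Other genes of the death pathway were followed as a list of 45, all of them found. Between pupal and mature adult progenitor-like cells, 9 of the 41 with at least 50 UMIs were more than 2-fold higher in the pupa and 2 were lower, beside 17.2% and 10.2% of all genes with as many UMIs. Their median log2 ratio was 0.21 against 0.13 over all genes. *NimC4*, a receptor for the engulfment of dying cells, had 187 pupal UMIs and 0 mature adult UMIs, at least 53.8-fold higher against a floor of 3 UMIs per group. *Buffy*, a Bcl-2 family gene, had a log2 ratio of 4.62 and *Drep2*, of the family of nuclease inhibitors, 3.15. Lower in the pupa were *egr*, the fly TNF, at -2.27, and *AIF*, a mitochondrial factor, at -1.22, followed by the cytochrome c gene *Cyt-c-p*, at -0.88.

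Between MtnB-high and mature adult EC-like cells, 13 of 39 listed genes were more than 2-fold higher and 8 lower, beside 31.1% and 36.6% of all genes. Their median log2 ratio was 0.63 against -0.17 over all genes. The engulfment adaptor *ced-6* was highest by ratio, at a log2 ratio of 8.55 [7.87 to 9.34]. *Eip93F*, an ecdysone-induced regulator of the removal of larval tissue, followed at 5.25 and the Bcl-2 family gene *Debcl* at 3.96. The caspases *Damm*, at -6.62, and *Decay*, at -4.20, and the peroxiredoxin *Jafrac2*, at -3.89, were lowest. *Dcp-1* was lower in MtnB-high than in mature adult EC-like cells too. In EC-like cells 24 of 40 listed genes were more than 2-fold higher in the pupa and 3 lower, beside 52.4% and 8.85% of all genes. In EE-like cells 0 of 26 were more than 2-fold higher and 2 lower, beside 12.9% and 10.4% of all genes.

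*hid*, *grim*, *rpr* and *skl* lie in this order within 272 kb of 3L, with 117, 93.1 and 40.1 kb between them. The annotation places 14 other genes in the interval, of which 12 were in the count tables. None of the 12 had 50 UMIs in pupal and mature adult progenitor-like cells together. *CG7320* had the most, with 19 pupal and 0 mature adult UMIs, and it was named after its values were seen. Its log2 ratio of pupa over mature adult, against a floor of 3 UMIs, was 2.45, with a lower limit of 2.01. The antagonists were therefore the only genes of their interval, among those counted, that reached 50 UMIs in this comparison.

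Over the 11 groups of class and library with at least 50 cells, the genes whose levels ran most like those of the antagonists were sought among 8409 genes by Pearson's r of log2(CPM + 20). The groups come from 3 libraries and differ in depth. Most like *rpr* were *exu* (0.94), *bark* (0.90) and *Gs1* (0.89). For *hid* they were *Nuf2* (0.98), *Egfr* (0.98), itself a marker in the progenitor gate, and *Nse1* (0.97). For *grim* they were *CG5071* (0.997), *pgc* (0.99) and *pnr* (0.99), and for *skl* *CG45263* (0.99), *CR45938* (0.98) and *Cyp49a1* (0.97). *exu*, *CR45938* and *Cyp49a1*, all but *Egfr* of those most like *hid*, and all of those most like *grim* were below 20 CPM in every group, so these matches rest on few UMIs. For *Diap1*, *Pfrx* (0.96), *CG1513* (0.96) and *Myd88* (0.94) were most like.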

How the data were processed

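Intestinal cells of 3 stages were profiled in 1 library each. The authors aligned the reads to release 6.25 of the Drosophila genome and counted UMIs with Cell Ranger 3.0.2, and the deposited files hold raw counts of UMIs per gene and barcode. Whether intronic reads were counted is not given in the sources used here.

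Cells were kept with under 25% mitochondrial UMIs (38 genes), 200 to 4000 genes and 1000 to 100000 UMIs, as in the paper, and classes were gated in turn by marker UMIs per 10000: VM over 200, EE over 100, progenitor over 40, MtnB over 500 and EC structure over 10. Cells outside all gates (57, 94 and 303) stayed unnamed. Doublets were kept and no caller was run. Summed counts were scaled to CPM, with exact Poisson, Clopper-Pearson and conditional binomial 95% intervals (Python 3.11.15, numpy 2.4.6, scipy 1.17.1, pandas 2.3.3, matplotlib 3.10.9). Only the conditional binomial intervals were checked, on simulated Poisson counts. These counts leave out the uneven spread of UMIs over cells, so the check does not cover it. Kept UMIs numbered 27026674, 21629263 and 47585248.

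All 9 genes are named. Of the other death genes, the 3 most raised and 3 most lowered among those with at least 50 UMIs are named in each main comparison. The members and lists were chosen with earlier results of these data known. Positions come from the BDGP6 annotation (17599 of 17738 identifiers matched). Alternatives changed the filter, gates, weight of cells, denominator, depth, roX cells, fold and minimum count.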

Additional observations from a re-analysis of the deposited data

Results flagged for a closer look

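Barcodes that the filter on cells removed, which enter none of the comparisons, held more than 3 UMIs of 9 of the 9 genes in the pupal library and of 8 in each adult library. In all 1803 removed pupal barcodes together *rpr* was 56.9 CPM and *hid* 8.68 CPM, in the 1428 of the immature adult 8.14 and 35.4 CPM, and in the 4855 of the mature adult 2.11 and 25.9 CPM.

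*Dcp-1* went in opposite directions between early pupa and mature adult in different classes. Its log2 ratio of pupa over mature adult was 1.79 in progenitor-like cells and 0.89 in EE-like cells, and -0.50 in EC-like cells. With 1 library per stage the difference between classes was not tested. The median log2 ratio of all genes in EC-like cells was 1.05.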

How the results depend on the processing

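The summed antagonists in pupal over mature adult progenitor-like cells had a log2 ratio of 1.58, and it was 1.74 with under 10% mitochondrial UMIs and 1.73 with no upper limit on genes and UMIs. In MtnB-high over mature adult EC-like cells it was 2.31 with *MtnB* left out of the totals, against 1.96. The share of progenitor-like cells with *rpr*, *grim* or *skl* was 29.3%, 0.539% and 0.433% in early pupa, immature adult and mature adult at 5000 UMIs, 11.2%, 0.493% and 0% at 1000 UMIs, and 25.9%, 0.739% and 0% with at least 2 UMIs. The fall in shares at lower depth follows from thinning itself. In other cases the cause was not tested. Single genes in the progenitor comparison gave 99 values over 11 alternatives, of which 88 lay inside the interval of the reported value and 98 kept its sign, the exception being *Dronc* among cells low in dividing markers. The MtnB-high comparison gave 79 values over 10 alternatives, of which 67 lay inside and 78 kept the sign, the exception being *skl*, with 4 UMIs. Between 5 and 7 genes were past the fold limit upwards in the first comparison and 5 or 6 in the second. Leaving out the deepest 5% of cells removed no progenitor-like cell of the early pupa or mature adult. The alternatives on mixed gates, minimum depth, upper limits, division and *MtnB* in the totals were chosen after seeing the data. No paired analysis was possible because each stage has 1 library. Counts of 1 or 2 UMIs in mature adult cells limit the ratios of *rpr*, *grim* and *skl*.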
